A study of Rattus norvegicus with 47 samples.

Results

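Nr4a1, Nr4a2 and Nr4a3 encode the NR4A orphan nuclear receptors, and their transcripts were followed in rat striatum and cerebellum after inhalation of PCB52, a polychlorinated biphenyl found in indoor and outdoor air. The 3 genes were picked from the 15319 genes of the count tables by symbol, through the deposited gene identifiers (Nr4a1, 79240, also Nur77; Nr4a2, 54278, also Nurr1; Nr4a3, 58853, also NOR-2). They were selected on measured values of these same libraries, among them the PCB52 comparison in cerebellum, so their levels in that comparison are given as a description with no test. All 3 passed the filter on low counts in both regions.

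Sprague-Dawley rats of both sexes breathed PCB52 vapour, or were sham-exposed, through a nose-only system for 4 h a day over 28 days. They were assigned to groups at 39 days of age (males) or 42 days of age (females), and RNA was sequenced from tissue punches. In striatum, counts were analysed for 6 PCB52 females, 6 PCB52 males, 6 sham females and 4 sham males, and in cerebellum for 6 PCB52 females, 5 PCB52 males, 6 sham females and 5 sham males. Each library came from 1 animal, named below by the number in its label, and 21 animals gave both regions. The purity of a punch is not described in the sources used here, and in bulk tissue fewer cells of a type and less RNA per cell cannot be told apart.

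NR4A proteins bind DNA and activate genes without a known classical ligand, so the amount of receptor made largely sets their activity. Their genes are immediate-early genes: calcium, cyclic AMP and growth factor signals switch them on within minutes through factors such as CREB, SRF and MEF2. In brain, Nr4a1 is known for its response to dopamine and neuronal activity in striatal projection neurons, Nr4a2 for the making and upkeep of midbrain dopamine neurons and for its expression in claustrum and deep cortical layers, and Nr4a3 as the third activity-induced member.

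Promoter windows of Nr4a1 and Nr4a2 are shown because CREB, the best known inducer of the family, binds the cyclic AMP response element and its core TGACG. Both windows run from 250 bases before to 50 bases after the start site in the RefSeq promoter table for GRCr8. The Nr4a1 window is chr7:134259888-134260187 on the plus strand and the Nr4a2 window is chr3:62104838-62105137 on the minus strand. Both windows lie inside the span of their gene, chr7:134247153-134268044 for Nr4a1 and chr3:62098739-62115926 for Nr4a2. Other start sites of these genes, including any farther upstream, were not examined. Capitals mark TGACG, or CGTCA where it lies on the opposite strand.
Nr4a1: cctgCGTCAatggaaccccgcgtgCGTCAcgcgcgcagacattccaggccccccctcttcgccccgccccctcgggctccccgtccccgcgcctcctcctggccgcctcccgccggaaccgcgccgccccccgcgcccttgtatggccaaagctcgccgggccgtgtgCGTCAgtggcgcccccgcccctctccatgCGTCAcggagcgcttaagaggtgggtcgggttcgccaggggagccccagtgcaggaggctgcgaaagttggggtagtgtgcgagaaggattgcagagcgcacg
Nr4a2: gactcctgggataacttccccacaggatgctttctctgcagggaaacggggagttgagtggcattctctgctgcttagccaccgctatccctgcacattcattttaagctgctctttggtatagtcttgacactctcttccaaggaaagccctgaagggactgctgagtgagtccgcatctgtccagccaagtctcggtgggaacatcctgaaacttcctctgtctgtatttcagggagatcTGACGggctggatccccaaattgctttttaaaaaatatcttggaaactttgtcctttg

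The Nr4a1 window held 4 such cores, starting at -246, -226, -82 and -53 from the start site, and the Nr4a2 window held 1, at -8. Among 33469 promoters of the same length, 21.2% held TGACG on either strand and 0.236% held 4 or more. The Nr4a1 window also held 1 EGR element (GCGGGGGCG on either strand) at -73, which does not overlap a core, and 2.73% of promoters held one. The whole element TGACGTCA (in 1.83% of promoters), the NR4A monomer element AAAGGTCA (1.43%) and the CArG box that SRF binds (1.64%) were not in either window. The Nr4a1 window was richer in G and C (72.3%) than the Nr4a2 window (48.7%). These matches describe letters in a window and were not tested as binding sites.

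Library depth and identity were checked before the results. Totals were 5684508 to 8914523 counts in striatum and 6524400 to 15865054 in cerebellum. The deepest cerebellar libraries were of PCB52 rats, with highest totals of 15865054 in females and 10436049 in males. In sham rats the highest were 7607827 in females and 8442982 in males. Of 13 genes that mark striatal projection neurons, 13 were higher in striatum than in cerebellum of sham rats, and of 12 that mark cerebellar granule cells, 12 were lower. Transcripts of both sexes, with Xist and the Y-linked Eif2s3y both above 3 CPM (counts scaled to library size), were present in 5 libraries, all sham: striatum male 3, and cerebellum females 8 and 10 and males 9 and 11. A marker list of another tissue stood more than 2 log2 units above its regional median in 6 libraries. These were striatum PCB52 females 14 (cortical neurons), 20 (choroid plexus) and 22 (cerebellar granule cells), PCB52 male 19 (cortical neurons) and sham female 12 (olfactory bulb), and cerebellum sham male 1 (choroid plexus).

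The 3 transcripts had lower mean levels in the cerebellum of PCB52 rats than of sham rats, in both sexes. Averaged over the sexes, the log2 fold change was -0.70 ± 0.19 (SE) for Nr4a1, -0.93 ± 0.19 for Nr4a2 and -1.33 ± 0.31 for Nr4a3, where the median over all 11690 genes tested was 0.00. Ordered by unadjusted p, Nr4a2 was number 1, Nr4a3 number 9 and Nr4a1 number 25 of these genes, which is part of why they were chosen. No gene passed an adjusted p of 0.05 in edgeR's quasi-likelihood test here (0% of genes, and 0 of the 3 members), although 1727 had an unadjusted p under 0.05. DESeq2 called 23 genes and limma called 0. Nothing is read from the members' own place in these counts, since they were chosen on this comparison.

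For Nr4a2, whose product is the receptor of midbrain dopamine neurons, levels in cerebellum of PCB52 females had a lowest value of 6.64, a median of 10.4 and a highest of 17.9 CPM, against 12.4, 17.7 and 25.3 CPM in sham females. Levels in PCB52 males were 9.37, 8.34, 9.35, 7.80 and 3.32 CPM, against 11.1, 20.9, 14.6, 17.7 and 17.3 CPM in sham males. Every PCB52 male lay below every sham male, and in females 4 of 6 PCB52 libraries lay below the lowest sham library. The log2 fold change was -0.77 ± 0.26 in females and -1.10 ± 0.29 in males.

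For Nr4a3, levels in cerebellum of PCB52 females had a lowest value of 1.66, a median of 3.89 and a highest of 8.23 CPM, against 2.65, 7.30 and 13.2 CPM in sham females. Levels in PCB52 males were 2.57, 1.41, 2.17, 1.81 and 0.50 CPM, against 3.62, 7.05, 4.85, 6.79 and 8.45 CPM in sham males. The males again did not overlap, while the females did, with 2 of 6 PCB52 females below the lowest sham female. These levels rest on few reads, 3 to 20 counts in PCB52 males against 25 to 60 in sham males. The log2 fold change was -0.82 ± 0.40 in females and -1.84 ± 0.48 in males. Complete separation of the males in this direction was found for Nr4a2 and Nr4a3 (2 of 3 members) and for 49 of the 11690 genes (0.419%). The members were chosen on this comparison, so nothing is read from their share.

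For Nr4a1, the member named Nur77, levels in cerebellum of PCB52 females had a lowest value of 17.7, a median of 19.1 and a highest of 26.1 CPM, against 18.2, 30.4 and 55.9 CPM in sham females. Levels in PCB52 males were 12.2, 24.6, 21.1, 13.6 and 10.1 CPM, against 14.9, 34.6, 19.4, 23.2 and 36.0 CPM in sham males. The groups overlapped in both sexes, and 11 of 11 PCB52 libraries lay below the median of the 11 sham libraries. The same count was 10 of 11 for Nr4a2 and 10 of 11 for Nr4a3. The share of all genes was not computed for this count. Nothing is read from it, since the genes were chosen on this comparison. The log2 fold change of Nr4a1 was -0.73 ± 0.26 in females and -0.67 ± 0.28 in males.

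**Figure D1:**
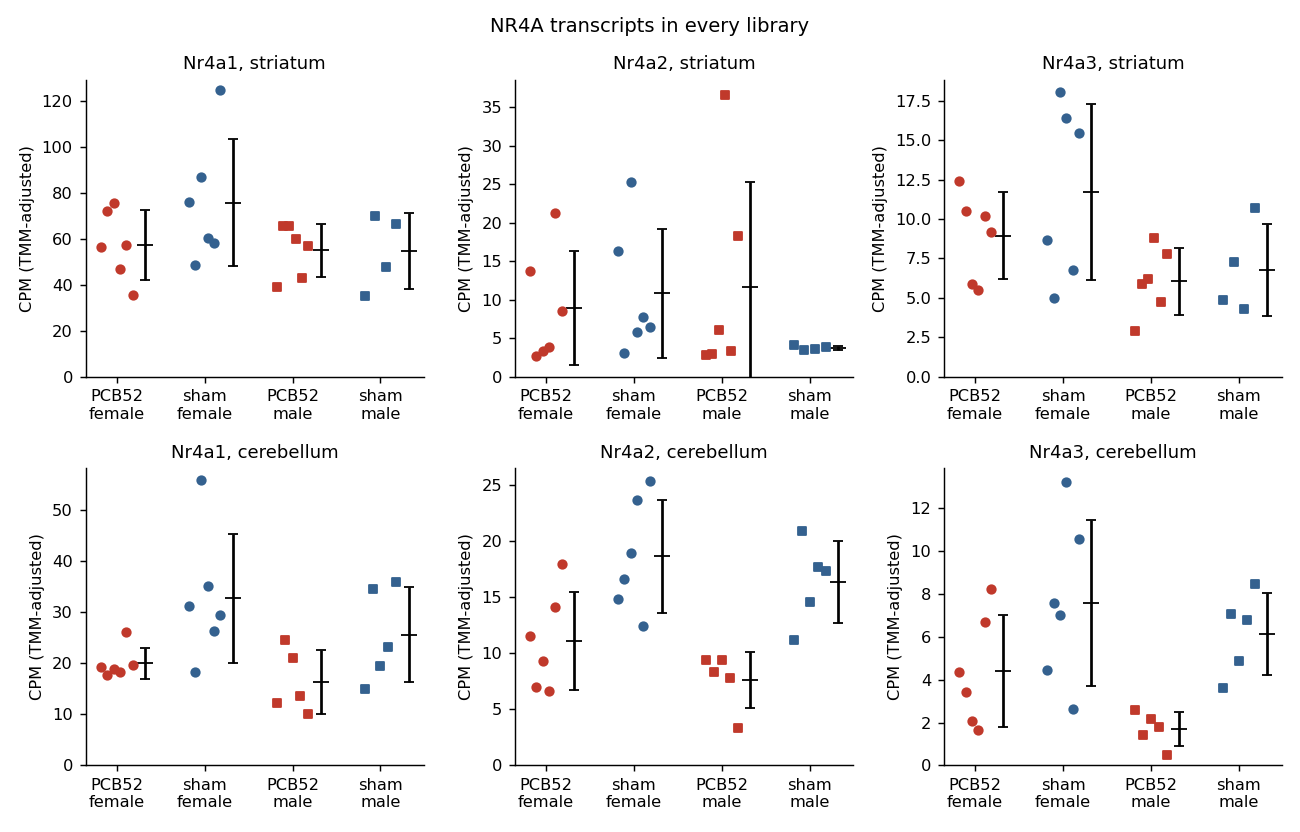
Level of each NR4A transcript in every library, in CPM, counts scaled to TMM-adjusted library size (vertical axes start at 0), for PCB52 and sham rats of each sex; black bars give the mean ± SD, and the bar of Nr4a2 in striatum of PCB52 males ends at the axis. In cerebellum of males no PCB52 point of Nr4a2 or Nr4a3 reaches the sham points, and in striatum Nr4a2 spreads from 2.71 to 36.6 CPM in PCB52 rats.

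Among cerebellar libraries, those with transcripts of both sexes were all sham. Without them the averaged log2 fold changes were -0.64 for Nr4a1, -0.91 for Nr4a2 and -1.19 for Nr4a3, and without sham male 1 they were -0.77, -0.99 and -1.40. The female effect minus the male effect was -0.07 ± 0.38 for Nr4a1, 0.33 ± 0.39 for Nr4a2 and 1.02 ± 0.62 for Nr4a3. It holds the cerebellar values the genes were chosen on and is a description with no test. Of all genes, edgeR called 0% (254 at an unadjusted p under 0.05), DESeq2 called 4 genes and limma called 0.

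Marker lists of other cells were set beside these values. The astrocyte list (8 of 8 genes measured) had a mean log2 CPM of 6.60 to 7.29 in PCB52 females and 6.46 to 7.14 in PCB52 males, against 6.83 to 7.26 in sham females and 6.90 to 7.26 in sham males. Across the 22 cerebellar libraries, r of this list was 0.64 with Nr4a2 and 0.62 with Nr4a3 (rho = 0.46 and 0.51). These values hold the PCB52 difference the genes were chosen on and are a description. With group means subtracted, r was 0.43 for Nr4a2 and 0.38 for Nr4a3, and without the 2 libraries farthest from the median it was 0.40 and 0.53. The astrocyte list was not the highest once group means were subtracted. The endothelial cell list then had r = 0.50 with Nr4a2 and 0.41 with Nr4a3, and the cortical excitatory neuron list 0.50 and 0.33. Cerebellum itself expresses several genes of the cortical list, with medians of 1028 CPM for Slc17a7, 173 CPM for Neurod2 and 129 CPM for Nrn1. In striatum these medians were 26.4, 2.5 and 5.5 CPM. In cerebellum the list therefore does not single out cortical neurons. The granule cell list had 11 of 12 genes lower in PCB52 rats, with a median log2 fold change of -0.12 and 0 called, and its summed level was 5907 to 8842 CPM in PCB52 females and 6200 to 8370 CPM in PCB52 males, against 6258 to 7965 CPM in sham females and 6963 to 8854 CPM in sham males. The part of either cell type in the NR4A values was not tested.

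In striatum, no member passed the test for PCB52. Averaged over the sexes, the log2 fold change was -0.20 ± 0.16 for Nr4a1, 0.68 ± 0.49 for Nr4a2 and -0.27 ± 0.24 for Nr4a3 (edgeR, adjusted p = 0.778, 0.774 and 0.779). Of the 12142 genes tested, 0% were called in this average, in females and in males. Unadjusted p was under 0.05 for 704, 1633 and 109 genes in these comparisons, DESeq2 called 0, 24 and 1, and limma called 0 in each.

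Striatal Nr4a1 had a lowest value of 35.6, a median of 56.8 and a highest of 75.7 CPM in PCB52 females, against 48.5, 68.1 and 124.6 CPM in sham females. It had 39.0, 58.3 and 65.6 CPM in PCB52 males, against 34.9, 69.9, 47.7 and 66.3 CPM in the 4 sham males. The groups overlapped in both sexes, and the highest value was that of sham female 12, the library with olfactory bulb markers. The log2 fold change was -0.40 ± 0.22 in females (edgeR, adjusted p = 0.395) and 0.01 ± 0.24 in males (adjusted p = 1.00).

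Striatal Nr4a3 had a lowest value of 5.50, a median of 9.70 and a highest of 12.4 CPM in PCB52 females, against 4.99, 12.1 and 18.1 CPM in sham females. It had 2.87, 6.04 and 8.80 CPM in PCB52 males, against 4.86, 7.27, 4.27 and 10.7 CPM in sham males. Overlap was broad in both sexes, with 3 sham females above every PCB52 female. The log2 fold change was -0.39 ± 0.31 in females (edgeR, adjusted p = 0.527) and -0.15 ± 0.36 in males (adjusted p = 1.00).

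Striatal Nr4a2 spread widely between animals. It had a lowest value of 2.71, a median of 6.20 and a highest of 21.3 CPM in PCB52 females, against 3.12, 7.16 and 25.3 CPM in sham females. In PCB52 males it had 2.87, 4.71 and 36.6 CPM, against 4.09, 3.41, 3.66 and 3.83 CPM in sham males. The sham males were tightly grouped, and PCB52 males 19 (36.6 CPM) and 23 (18.3 CPM) stood far above them while 3 PCB52 males lay below all 4. The log2 fold change in males was 1.64 ± 0.77 (edgeR, adjusted p = 1.00) and it was 0.83 without PCB52 male 19. In females it was -0.27 ± 0.62 (adjusted p = 0.838) and changed sign, to 0.17, without sham female 6. The female effect minus the male effect in striatum was -0.41 ± 0.33 for Nr4a1, -1.91 ± 0.98 for Nr4a2 and -0.23 ± 0.47 for Nr4a3 (edgeR, adjusted p = 0.914, 0.914 and 0.945; 0% of genes called, 471 at an unadjusted p under 0.05, 0 called by DESeq2 and limma).

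**Figure D2:**
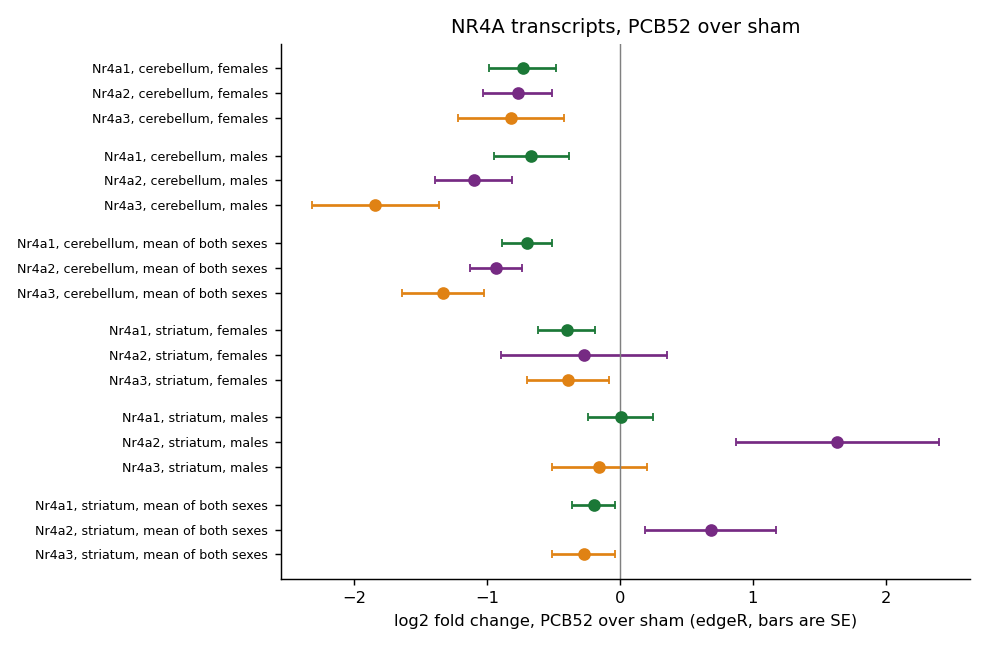
Log2 fold change of PCB52 over sham (horizontal axis; points are edgeR estimates, bars are SE) for each NR4A transcript, by region and sex. The 9 cerebellar points lie between -1.84 and -0.67, and the striatal points lie between -0.40 and 1.64, with Nr4a2 in males the farthest to the right and its bar the widest.

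Nr4a2 in striatum went with markers of cortical neurons. Of the 10 genes of the cortical excitatory neuron list, 9 were measured, and their summed level was 64.3 to 513 CPM in PCB52 females and 41.1 to 502 CPM in PCB52 males, against 45.0 to 345 CPM in sham females and 46.4 to 67.4 CPM in sham males. The defining member Neurod6 was at 0 in 2 of the 22 libraries. Across these libraries, the mean log2 level of the list correlated with Nr4a2 (r = 0.88, permutation p = 1e-04, the smallest that 10000 permutations can give; rho = 0.83, permutation p = 2e-04). Adjusted over the 96 pairs, p was 0.0048 for r and 0.0096 for rho, and r was 0.86 without the 2 libraries farthest from the median and 0.88 with group means subtracted. The list of claustrum and deep cortical layer genes (10 of 11 measured) gave r = 0.88 with Nr4a2 (permutation p = 1e-04, adjusted p = 0.0048; rho = 0.79, permutation p = 1e-04), and r = 0.82 without the 2 farthest libraries. Its summed level was 304 to 413 CPM in PCB52 females and 362 to 454 CPM in PCB52 males, against 333.98 to 514 CPM in sham females and 363 to 415 CPM in sham males. Striatum itself expresses several of its genes, with medians of 138 CPM for Tle4, 66.4 CPM for Nxph4 and 56.1 CPM for Foxp2. Ntng2, the list's gene for the cell adhesion molecule netrin-G2, was 7.17 to 35.5 CPM and highest in PCB52 male 19, the library highest in Nr4a2.

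Striatal Nr4a3 also went with the cortical list (r = 0.69, permutation p = 2e-04, adjusted p = 0.0064; rho = 0.68, permutation p = 4e-04, adjusted p = 0.0128; r = 0.61 without the 2 farthest libraries). With the claustrum list Nr4a3 had r = 0.60 (permutation p = 0.0026, adjusted p = 0.0357; rho = 0.53, permutation p = 0.0114, adjusted p = 0.228), and r was 0.44 without the 2 farthest libraries. Nr4a1 passed the adjusted threshold with neither list. It had a negative correlation with the oligodendrocyte list (r = -0.66, permutation p = 9e-04, adjusted p = 0.0211), and r was -0.63 with group means subtracted. The relation was weaker by rank (rho = -0.34, permutation p = 0.121, adjusted p = 0.351) and without the 2 farthest libraries (r = -0.43). All 9 cortical list genes had a higher fitted level in PCB52 striatum, with a median log2 fold change of 1.25 over both sexes and 0 called. With the 5 striatal libraries that held markers of another tissue left out, the averaged log2 fold change of Nr4a2 was -0.21, opposite in sign to the 0.68 over all libraries. Of these, PCB52 female 14 and PCB52 male 19 held cortical markers. PCB52 females 20 and 22 and sham female 12 held those of choroid plexus, granule cells and olfactory bulb. The granule cell list had r = 0.48 with striatal Nr4a2 (permutation p = 0.0182, adjusted p = 0.109), and 0.56 with group means subtracted. The parts of cortical and other tissue in the Nr4a2 values cannot be told apart here and were not tested further.

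**Figure D3:**
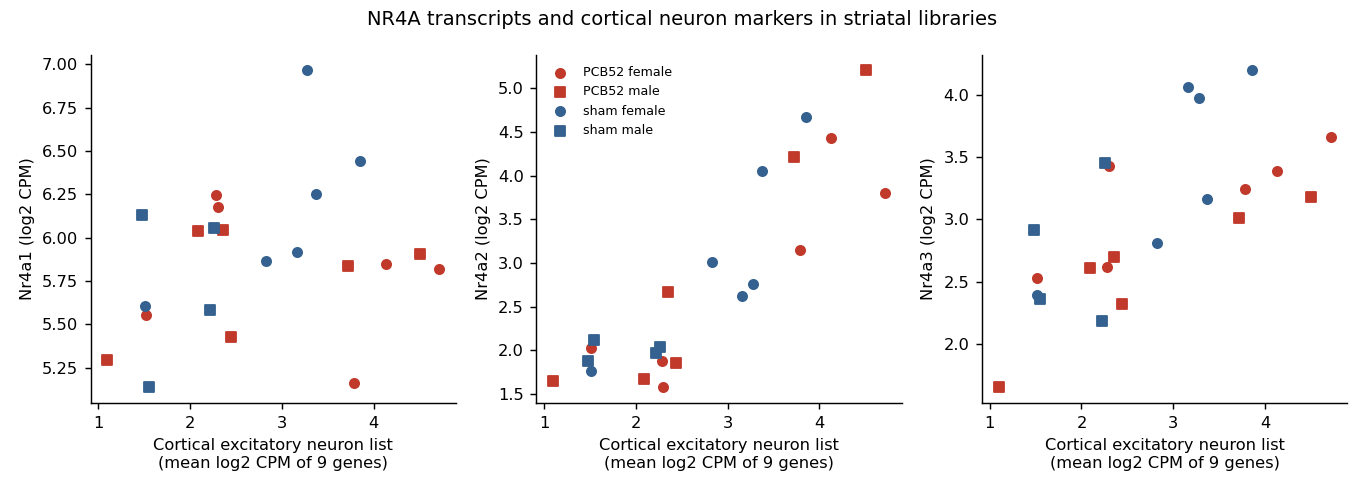
Level of each NR4A transcript (log2 CPM, vertical axes) against the mean log2 CPM of 9 cortical excitatory neuron genes (horizontal axis) in the 22 striatal libraries, colored by treatment and shaped by sex. Nr4a2 climbs with the marker list (r = 0.88), Nr4a3 does so more loosely (r = 0.69), and the 4 sham males sit at the low end of the list.

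Levels were set side by side between regions. In sham rats, the striatum to cerebellum log2 fold change was 1.15 ± 0.19 for Nr4a1, -1.45 ± 0.40 for Nr4a2 and 0.38 ± 0.28 for Nr4a3. These comparisons share their cerebellar libraries with the comparison the genes were chosen on, so they are a description with no test. In PCB52 rats, whose cerebellar levels chose the genes, the striatum to cerebellum log2 fold change was 1.64 ± 0.19 for Nr4a1, 0.15 ± 0.36 for Nr4a2 and 1.42 ± 0.29 for Nr4a3, given as a description with no test. Of all 12446 genes, edgeR called 76.9% in PCB52 rats and 69.8% in sham rats, so most genes differed between the regions.

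Within animals, Nr4a1 was higher in striatum in 11 of 11 PCB52 animals and 10 of 10 sham animals, with a median log2 difference of 1.54 in PCB52 and 1.08 in sham animals. Nr4a2 was higher in striatum in 4 of 11 PCB52 animals and 2 of 10 sham animals, with a median of -1.04 in PCB52 and -1.94 in sham animals. Nr4a3 was higher in striatum in 11 of 11 PCB52 animals and 8 of 10 sham animals, with a median of 1.45 in PCB52 and 0.37 in sham animals. The share of all genes was not computed for these counts of animals. The counts hold the cerebellar values the genes were chosen on, and nothing is read from them. For Nr4a2 in PCB52 rats the median within animals and the fitted mean have opposite signs, and without striatal PCB52 male 19 the fitted value was -0.25, without striatal PCB52 female 22 it was -0.08, and with the animal as a replicate block it was -0.21. The striatal PCB52 effect minus the cerebellar one was 0.49 ± 0.26 for Nr4a1, 1.60 ± 0.53 for Nr4a2 and 1.05 ± 0.40 for Nr4a3. It holds the cerebellar values the genes were chosen on and is therefore a description; edgeR called 0% of genes (2278 at an unadjusted p under 0.05), DESeq2 3 and limma 0.

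Sex made no called difference to the members in striatum of sham rats. The female over male log2 fold change in striatum was 0.47 ± 0.25 for Nr4a1, 1.52 ± 0.76 for Nr4a2 and 0.80 ± 0.35 for Nr4a3 (edgeR, adjusted p = 1.00 for each), where 4 genes or 0.0329% were called. In cerebellum it was 0.36 for Nr4a1, 0.19 for Nr4a2 and 0.31 for Nr4a3 (adjusted p = 1.00 for each; 0% of genes called, 123 at an unadjusted p under 0.05, 0 called by DESeq2 and limma). The sham libraries with transcripts of both sexes enter these comparisons; without the 4 cerebellar ones, 4 genes were called there.

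Nr4a2 and Nr4a3 varied together between cerebellar libraries. Over the 22 libraries r was 0.94 and rho 0.93 for this pair, r was 0.74 and rho 0.74 for Nr4a1 with Nr4a2, and r was 0.65 and rho 0.62 for Nr4a1 with Nr4a3. Without the 2 libraries farthest from the median r was 0.91, 0.67 and 0.56. These values are a description, because the PCB52 difference the genes were chosen on is built into them. The tests in cerebellum were run with group means subtracted, and their p adjusted over 9 correlations. The permutations moved the subtracted values freely between groups. They take no account of the subtraction, so p may be too small, and values near the threshold are not read as passing. For Nr4a2 and Nr4a3 r was then 0.90 and rho 0.92 (permutation p = 1e-05 for both, the smallest that 100000 permutations can give; adjusted 9e-05). For Nr4a1 and Nr4a2 r was 0.51 and rho 0.48 (permutation p = 0.0153 and 0.0244, adjusted 0.0275 and 0.0439). For Nr4a1 and Nr4a3 r was 0.38 and rho 0.39, which did not pass (permutation p = 0.0788 and 0.0726, adjusted 0.118 and 0.109). Among the genes ranked by likeness in cerebellum, Nr4a2 and Nr4a3 each had the other as the nearest. These transcripts share library depth and composition within each library.

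**Figure D4:**
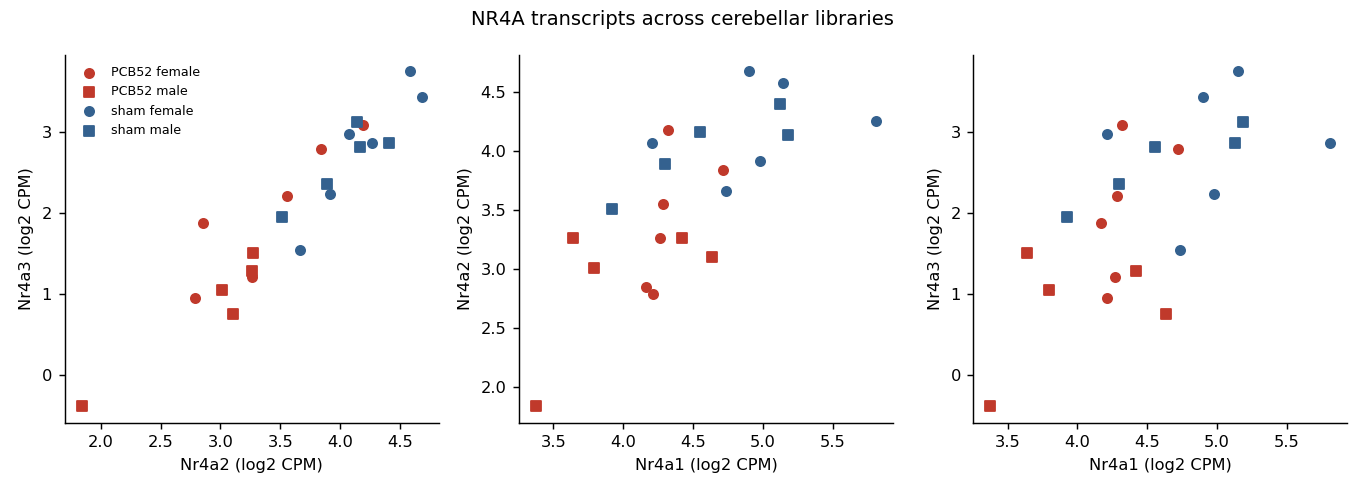
Levels of pairs of NR4A transcripts (log2 CPM on both axes) in the 22 cerebellar libraries, colored by treatment and shaped by sex. Nr4a2 and Nr4a3 fall close to a line (r = 0.94) with PCB52 male 23 at its foot, and r is 0.74 and 0.65 in the panels with Nr4a1.

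Across the 22 striatal libraries, Nr4a1 and Nr4a3 had r = 0.62 and rho = 0.58 (permutation p = 0.00188 and 0.00494, adjusted 0.00423 and 0.00889; r = 0.53 without the 2 farthest libraries), and Nr4a2 and Nr4a3 had r = 0.54 and rho = 0.56 (permutation p = 0.00968 and 0.00719, adjusted 0.0145 and 0.0108; r = 0.48 without the 2 farthest). Nr4a1 and Nr4a2 had r = 0.22 and rho = 0.15 (permutation p = 0.331 and 0.512, adjusted 0.372 and 0.512; r = 0.23 without the 2 farthest). These striatal tests were run without subtracting group means. With them subtracted, Nr4a1 and Nr4a3 had r = 0.56 and rho = 0.50 (permutation test, adjusted p = 0.0244 and 0.0439). Nr4a2 and Nr4a3 then had r = 0.55 and rho = 0.50 (permutation test, adjusted p = 0.0244 and 0.0439). Nr4a1 and Nr4a2 had r = 0.14 and rho = 0.03 (permutation test, adjusted p = 0.61 and 0.88). Between the regions of the same 21 animals, r was 0.60 for Nr4a1, -9.2e-05 for Nr4a2 and 0.48 for Nr4a3 (rho = 0.64, 0.25 and 0.51; r = 0.61, -0.03 and 0.46 without the 2 farthest animals), again with the PCB52 difference of cerebellum built in. With group means subtracted, Nr4a1 had r = 0.54 and rho = 0.51 (permutation p = 0.0126 and 0.0201, adjusted 0.0275 and 0.0439). Nr4a2 had r = 0.06 and rho = 0.13 (permutation p = 0.785 and 0.567, adjusted 0.785 and 0.637), and Nr4a3 had r = 0.35 and rho = 0.37 (permutation p = 0.115 and 0.102, adjusted 0.148 and 0.131). All p with group means subtracted, in striatum and between regions, carry the limit given for cerebellum and may be too small.

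Genes of most similar pattern were ranked by r with group means subtracted over the 22 libraries of a region, among 12026 genes in striatum and 11567 in cerebellum, as a description. Striatal Nr4a1 was followed by activity-induced genes: Arc, a synaptic plasticity protein (0.93), the zinc-finger factors Egr4 (0.90) and Egr2 (0.88), the AP-1 subunit Junb (0.87), and the acetyltransferase gene Naa60 (0.87). Striatal Nr4a2 was followed by Rgs12, a regulator of G-protein signalling (0.96), Ntng2 (0.92), the secreted synaptic protein gene C1ql3 (0.89), the neuronal pentraxin Nptx1 (0.88) and the G-protein subunit Gng2 (0.87). Striatal Nr4a3 had weaker neighbours: the calcium-responsive kinase Ptk2b (0.76), Lpin2 (0.74), R3hdm1 (0.74), the potassium channel Kcnj6 (0.73) and the DNA polymerase Polb (0.73).

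In cerebellum, Nr4a1 was followed by the Mediator subunit Med26 (0.77), Kctd10 (0.75), Klhl25 (0.75), the mitochondrial Immt (0.74) and the immediate-early gene Fos (0.74). Apart from Nr4a3, Nr4a2 was followed by Prx (0.82), the beta-catenin gene Ctnnb1 (0.80), the ferritin receptor Ncoa4 (0.78), Spata2L (0.76) and Hgs (0.75). Nr4a3, apart from Nr4a2, was followed by Plcl2 (0.72), Ctnnb1 (0.71), the glutamate receptor Grm7 (0.71), the splicing factor Slu7 (0.70) and Ncoa4 (0.69). Striatal Nr4a1 thus had 4 activity-induced genes among its 5 nearest, and the cerebellar lists of Nr4a2 and Nr4a3 shared Ctnnb1 and Ncoa4.

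The pathway around the receptors was described through 5 gene lists. Of the inducible transcription factors that respond to the same signals, 22 were tested in cerebellum, where 15 were lower and 7 higher in PCB52 rats on average over the sexes, with a median log2 fold change of -0.13 against 0.00 over all genes and 0 called. Fosb and Fos, which are AP-1 subunits, and Npas4, an activity-dependent factor of neurons, lay lowest, picked out here after their values were seen. Of the other Fos genes, Fosl2 had -0.52 ± 0.20 and Fosl1 -0.09 ± 0.12. Fosb had -1.51 ± 0.35, with 1.01 ± 0.54 CPM in PCB52 females and 0.43 ± 0.37 CPM in PCB52 males, against 2.36 ± 1.08 CPM in sham females and 1.56 ± 0.89 CPM in sham males (SD, n = 6, 5, 6 and 5). Npas4 had -1.03 ± 0.34 and Fos -0.89 ± 0.30. Fos had 18.9 ± 7.90 CPM in PCB52 females and 12.2 ± 6.28 CPM in PCB52 males, against 31.5 ± 16.2 CPM in sham females and 24.4 ± 11.7 CPM in sham males. Other induced factors lay near 0, with 0.01 ± 0.19 for Egr4, 0.05 ± 0.18 for Junb and -0.19 ± 0.17 for Egr1, while Jund, the list's most abundant member, had 0.22 ± 0.12. Each of these genes had an adjusted p above the threshold (0.326 for Fos, Fosb and Npas4, in edgeR).

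**Figure D5:**
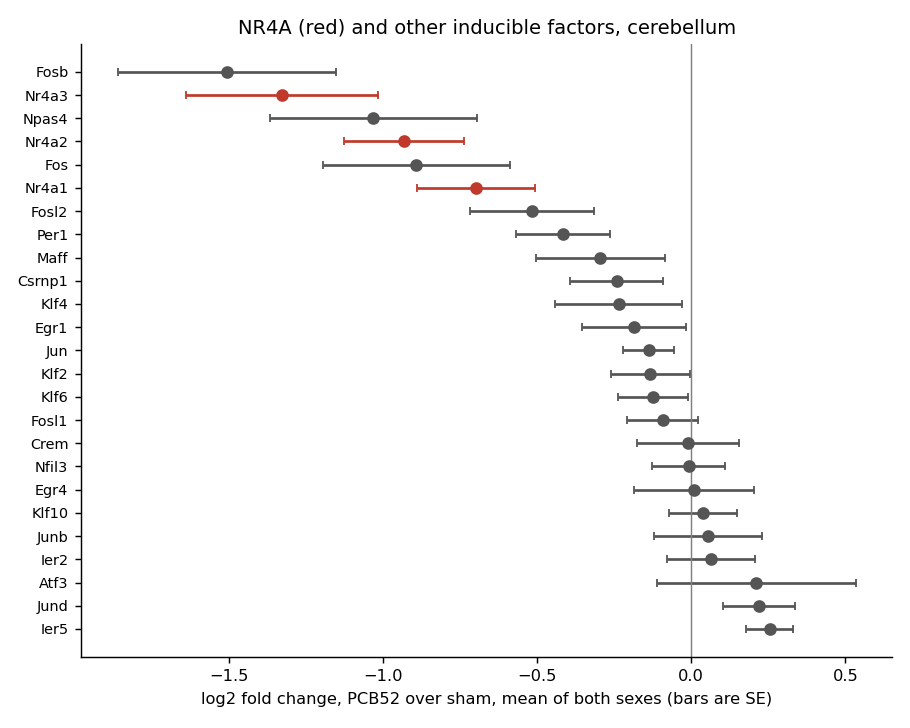
Log2 fold change of PCB52 over sham in cerebellum, averaged over the sexes (points are edgeR estimates, bars are SE), for the NR4A transcripts (red) and 22 other inducible transcription factors (grey). Fosb, Nr4a3, Npas4, Nr4a2, Fos and Nr4a1 are the lowest 6, from -1.51 to -0.70, and Egr4 and Junb lie near 0.

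Induced effector genes of the cerebellum were evenly split in the same comparison, with 11 lower and 10 higher of 21 (median -0.02, 0 called). Their most abundant members, the phosphatase genes Dusp5 and Dusp1, had 0.16 ± 0.07 and -0.29 ± 0.18, and Arc had 0.23 ± 0.08. Upstream activators, the kinases and factors that switch the family on, had 14 lower and 7 higher of 21 (median -0.16, 0 called). The sexes were unlike in count, with 11 lower and 10 higher in females (median -0.0013) and 18 lower and 3 higher in males (median -0.36). The female effect minus the male effect was above 0 for 20 of the 21, with 0 called. Among them Creb1 had -0.47 ± 0.21, and the abundant kinase gene Camk2b had -0.13 ± 0.11. Partner receptors and corepressors had 8 lower and 7 higher of 15 (median -0.02, 0 called), with 0.11 ± 0.05 for Rxrb, which pairs with NR4A receptors, and -0.34 ± 0.26 for Ncor1. Of the dopamine neuron targets of Nr4a2, 5 were tested, 3 lower and 2 higher (median -0.12, 0 called), and the abundant ones, Ret and Aldh1a1, had -0.34 ± 0.16 and 0.06 ± 0.12.

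In striatum, 20 of 24 inducible factors were lower and 4 higher in PCB52 rats on average (median -0.09 against 0.00 over all genes, 0 called), with -0.21 ± 0.13 for Junb and -0.21 ± 0.16 for Egr4. Of the effector genes, 15 of 23 were lower and 8 higher (median -0.05, 0 called), with -0.07 ± 0.14 for Arc. Upstream activators had 14 of 21 higher (9 in females and 16 in males), partners 10 of 15 higher (11 in females and 5 in males) and dopamine targets 4 of 8 higher, again with 0 called. Between regions of sham rats, where most genes differ, 11 inducible factors were called higher in striatum and 6 lower, of 24, a share close to the 69.8% called among all genes. Single genes of lowest p had values of 8.57 ± 0.36 for Egr3 and 7.53 ± 0.41 for Egr2, while Jun had -1.35 ± 0.09. Egr2 had a mean of 9.09 CPM over the 22 striatal libraries, so its ratio rests on a cerebellar level near the floor. The cerebellar level of Egr3 is not given here. Rxrg, a retinoid receptor enriched in striatum, had 5.41 ± 0.22.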

How the data were processed

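RNA sequencing libraries of striatum and cerebellum from single rats were analysed. The authors deposited whole-number read counts per gene and library, not normalized, as the files show. The submitters' processing notes name FastQC, HISAT2 and rn6. Neither these notes nor the labels name a counter, an annotation or a strand setting, so an overlapping or antisense gene cannot be told apart, and no coordinates were converted. Gene symbols came from the RefSeq table for GRCr8, which matched 15230 of 15319 identifiers (99.4%). Of 47 samples in the labels, 44 had counts, and sham males 5 and 7 (striatum) and 5 (cerebellum) were not analysed here. No 2 libraries of a group differed by sampling noise alone (smallest chi-square per degree of freedom 3.58).

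From the counts, edgeR 4.0.16 (R 4.3.3, TMM, filterByExpr, robust quasi-likelihood test) fitted 4 group means per region, and 8 over both regions for regional contrasts. Benjamini-Hochberg adjustment ran over all genes tested, with a threshold of 0.05. The scripts were tested on simulated data. Levels are CPM with TMM-adjusted totals over the 44 libraries, and log2 CPM has a prior count of 2. Lengths of transcripts were not used, so levels are not compared between genes. Correlation tests were two-sided permutations, 100000 for the members and 10000 for marker lists. Alternatives were DESeq2 1.42.0, limma 3.58.1 (voom with sample weights), other size factors, no filter, only the libraries compared, each library left out, libraries with transcripts of both sexes or of another tissue left out, and the animal as a block, since the labels give both regions of an animal 1 number.

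The members, lists and rules were chosen with earlier results of these data known. Named beside the members are the 5 genes of highest r per member and region, the 2 most abundant members of each list per region, and genes of lowest p past the threshold between regions. Fos, Fosb, Fosl1, Fosl2, Npas4, Egr1, Egr4 and Creb1, and Junb and Arc in cerebellum, were named after their values were seen. Some genes these rules name are not reported here.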

Additional observations from a re-analysis of the deposited data

Results flagged for a closer look

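Of 24 groups checked (3 genes, 2 regions, 4 groups each), 2 had a library far from the others, where chance flags about 1 in 20 groups. Nr4a1 in cerebellum of PCB52 females was highest in animal 22, at 26.1 CPM against 19.7 CPM in the next library, a gap of 0.76 of the group's range (critical value 0.625). Nr4a2 in cerebellum of PCB52 males was lowest in animal 23, at 3.32 CPM against 7.80 CPM in the next library, a gap of 0.741 of the range (critical value 0.71). The same library had the lowest Nr4a1 and Nr4a3 of its group.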

How the results depend on the processing

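In cerebellum the members' PCB52 averages kept their sign under every alternative run, with ranges over left-out libraries of -0.79 to -0.59 for Nr4a1, -1.03 to -0.84 for Nr4a2 and -1.46 to -1.21 for Nr4a3. The alternatives reuse the libraries the genes were chosen on, so nothing is read from the kept sign. DESeq2 called 1 gene in striatum of males, 24 in striatum of females, 1 in cerebellum of males, 10 in females, 23 in the average, 4 in the cerebellar difference between the sexes and 3 in the difference between regional effects, each against 0 in edgeR. The sham sex comparison gave 4 calls in cerebellum without libraries of both sexes (0 to 2 over left-out libraries, 2 without sham female 8) and 2 in striatum with only the libraries compared. Limma reversed uncalled values: Nr4a1 in striatum of males (-0.0054), Nr4a2 in the striatal average (-0.012), the striatal difference between the sexes for Nr4a3 (0.19), the cerebellar one for Nr4a1 (0.054) and the regional Nr4a2 of PCB52 rats (-0.57). Leaving out libraries with markers of another tissue reversed Nr4a1 in striatum of males (-0.017), Nr4a2 in the striatal average (-0.21), the cerebellar difference between the sexes for Nr4a1 (0.076) and the regional Nr4a2 of PCB52 rats (-0.68). The cause was not tested. With the animal as a replicate block, the regional log2 fold changes were 1.14, -1.55 and 0.36 for Nr4a1, Nr4a2 and Nr4a3 in sham rats, and Nr4a2 in PCB52 rats reversed to -0.21. Leaving out 1 library gave ranges that cross 0 for Nr4a1 (-0.16 to 0.15) and Nr4a3 (-0.31 to 0.15) in striatum of males, Nr4a2 in striatum of females (-0.75 to 0.17), the cerebellar difference between the sexes for Nr4a1 (-0.22 to 0.15) and the regional Nr4a2 of PCB52 rats (-0.25 to 0.27). With group means subtracted, r was 0.38 for Nr4a1 with Nr4a3 in cerebellum, 0.063 for Nr4a2 between regions and 0.35 for Nr4a3 between regions, and the last was 0.46 without the 2 farthest animals. Depth limits Nr4a3 in cerebellum most, at 3 counts in PCB52 male 23.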
